A study of Mus musculus with 5 samples.

Results

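The cells described here were the globin-positive cells of mouse growth plate cartilage, most of which also held RNA of other genes of red blood cell precursors. A cell was a member if it held at least 10 unique molecular identifiers (UMIs, each counting 1 captured RNA molecule) of the adult globin genes Hba-a1, Hba-a2, Hbb-bs and Hbb-bt together. It also had to hold fewer than 300 UMIs of the cartilage collagen gene Col2a1 per 10000 UMIs. Among cells with 200 to 6000 genes and at most 10% mitochondrial UMIs, 578 of 82516 cells were members. The cells were thus selected on their measured globin and Col2a1 counts. The levels of those 5 genes in the members are therefore a description and no support for the identity of the cells. The proportions of the adult globins among themselves were compared between genotypes, as given below.

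The data came from single-cell RNA sequencing of the femoral and tibial growth plates of 5 littermate pups of the C57BL/6J strain, with 1 library per pup. WT pups 1 and 2 were labelled wild type, and mutant pups 3, 4 and 5 were heterozygous conditional knock-ins for the p.R594H change of the ion channel gene Trpv4, induced by Col2a1-Cre. That Cre is driven by the Col2a1 promoter and acts in cartilage cells, so the mutation was not directed at blood cells. The sample labels give the age as postnatal day 5, and the series description gives it as postnatal day 3.

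Red blood cells arise from dividing erythroblasts that switch on the transcription factors GATA1 and KLF1, build the membrane skeleton, take up iron and make heme for hemoglobin. As they mature they stop dividing, condense and expel the nucleus, clear their mitochondria and become reticulocytes, which keep only a small set of RNAs that is rich in globin. In a newborn long bone such cells lie in the marrow and its vessels, next to the growth plate and not within cartilage.

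The promoters of 3 genes that mark these cells are shown with matches to short motifs of the kinds that the erythroid regulators GATA1 and KLF1 are known to bind. They hold the 250 bases before the RefSeq transcript start in build GRCm38.p6, 5′ to 3′ on the strand of the gene. Capitals mark the GATA motif (AGATAA and AGATAG, besides the forms TGATAA and also TGATAG) and the CACCC-type motif CCNCNCCC, both searched on both strands, and the TATA motif ATATAA on the gene's strand. Hba-a1 encodes an adult alpha globin (chr11:32283422-32283671, plus strand), Hbb-bs an adult beta globin (chr7:103827929-103828178, minus strand) and Alas2 the first enzyme of erythroid heme synthesis (chrX:150547167-150547416, plus strand).
Hba-a1: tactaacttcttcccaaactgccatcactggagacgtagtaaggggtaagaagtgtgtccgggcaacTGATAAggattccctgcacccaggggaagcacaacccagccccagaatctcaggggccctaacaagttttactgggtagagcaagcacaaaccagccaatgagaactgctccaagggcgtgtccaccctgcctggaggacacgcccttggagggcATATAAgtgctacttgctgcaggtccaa
Hbb-bs: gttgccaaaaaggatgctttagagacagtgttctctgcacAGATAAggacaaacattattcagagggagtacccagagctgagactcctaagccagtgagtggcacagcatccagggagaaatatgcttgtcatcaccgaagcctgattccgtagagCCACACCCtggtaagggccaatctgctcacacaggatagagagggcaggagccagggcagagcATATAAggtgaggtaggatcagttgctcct
Alas2: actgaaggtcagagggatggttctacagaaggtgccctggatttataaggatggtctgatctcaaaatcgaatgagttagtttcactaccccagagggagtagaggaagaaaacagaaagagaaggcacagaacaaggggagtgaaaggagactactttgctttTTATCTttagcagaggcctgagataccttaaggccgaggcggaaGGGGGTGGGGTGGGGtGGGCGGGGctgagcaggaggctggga
Each of the 3 windows held 1 match to a GATA motif, located 183, 210 and 86 bases before the start in Hba-a1, Hbb-bs and Alas2. The CACCC-type motif had 0 matches in the Hba-a1 window, 1 in that of Hbb-bs and 4 in that of Alas2. Of 27025 promoters of the same length in the table, 27.1% held a GATA motif, 45.6% a CACCC-type motif and 5.95% the TATA motif. The Hba-a2 window was identical to that of Hba-a1 at all 247 aligned positions, whereas the Hbb-bt window matched that of Hbb-bs at 182 of 252. Hba-a1 and Hba-a2 are near-identical copies, so the split of reads between them is uncertain.

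The files held 117746735 to 183322632 UMIs per pup. Of 82461 distinct barcodes of filtered cells, 55 occurred in more than 1 pup. No barcode was shared between members of different pups, but 1 member of WT pup 1 shared its barcode with a filtered cell of mutant pup 4. Xist, which is expressed from the inactive X chromosome, was at 451 and 552 CPM (UMIs per 1000000 UMIs of the summed cells) in the core-positive cells (members with a UMI of at least 2 core erythroid genes) of mutant pups 3 and 4 and at 0 in the other pups. The Y-linked gene Ddx3y showed the reverse, with 102 to 135 CPM in WT pups 1 and 2 and mutant pup 5 and 0 in the other 2 pups. No doublet caller was run.

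Genes of the red cell membrane were prominent in the members that held core erythroid genes. The ratios compare the CPM of core-positive cells with all cells that were not members, over genes with at least 50 CPM in every pup. The highest belonged to Hemgn, an erythroid nuclear factor (1367-fold), Slc4a1, the band 3 anion exchanger (1300-fold), and Rhag, the Rh-associated glycoprotein (1256-fold). Kel, a blood group antigen (1043-fold), Epb42, protein 4.2 of the skeleton (1030-fold), and Trim10, an erythroid ubiquitin ligase (1010-fold), were also among the leading genes. Of the 25 leading genes, 21 were in the erythroid gene lists used here, and all ratios are a description. The globin threshold and the core list chose the cells, and the 6 genes named here are in that list, so the choice itself raised them.

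Alas2, which the membership rule did not use, had a UMI in 79.1% of members and in 0.510% of other cells. In 619 macrophages of the same pups, a blood-derived cell type that should not express it, the share was 0.162%, at a median of 8455 UMIs per cell against 6373 in the members. With every cell thinned to 1000 UMIs, Alas2 was seen in 53.3% of members, 0.116% of other cells and 0% of macrophages. Most members thus held RNA of an erythroid gene outside the rule. The other cells and the macrophages had a median globin share of 0%, so this contrast also follows the choice of members on globin. Of the globin-positive cells excluded just above the Col2a1 limit, 11 of 11 also had an Alas2 UMI. An Alas2 UMI cannot tell an erythroid cell from another cell that carries red cell RNA, and which of these the members were was not tested.

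Erythroid RNA other than globin was not held equally by all members. Of a core list of 20 erythroid genes (among them Alas2, Slc4a1, Klf1 and Gata1), 19 were in the files, and a member with a UMI of at least 2 of them is called core-positive. Of the 578 members, 430 were core-positive and 148 had a UMI of 0 or 1 core genes. The 148 cells held a median of 74 globin UMIs, or 1.03% of their UMIs, whereas the core-positive cells held 882, or 14.7%. The plot of globin UMIs against core genes shows where the cells with few core genes lay, and the pups differed among members with a low globin share. Of the members with under 1% globin UMIs, 67.6% of 37 cells were core-positive in WT pup 1, 5.13% of 39 in WT pup 2, 21.4% of 14 in mutant pup 3, 0% of 8 in mutant pup 4 and 40.0% of 5 in mutant pup 5. Over all pups, of the 20 members with 10 to 12 globin UMIs 1 was core-positive, and of the 20 cells just outside, with 8 or 9 globin UMIs, 2 were. At the other limit, 7 of 11 members with 250 to under 300 Col2a1 UMIs per 10000 were core-positive, as were 8 of 11 excluded cells with 300 to 350.

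**Figure D1:**
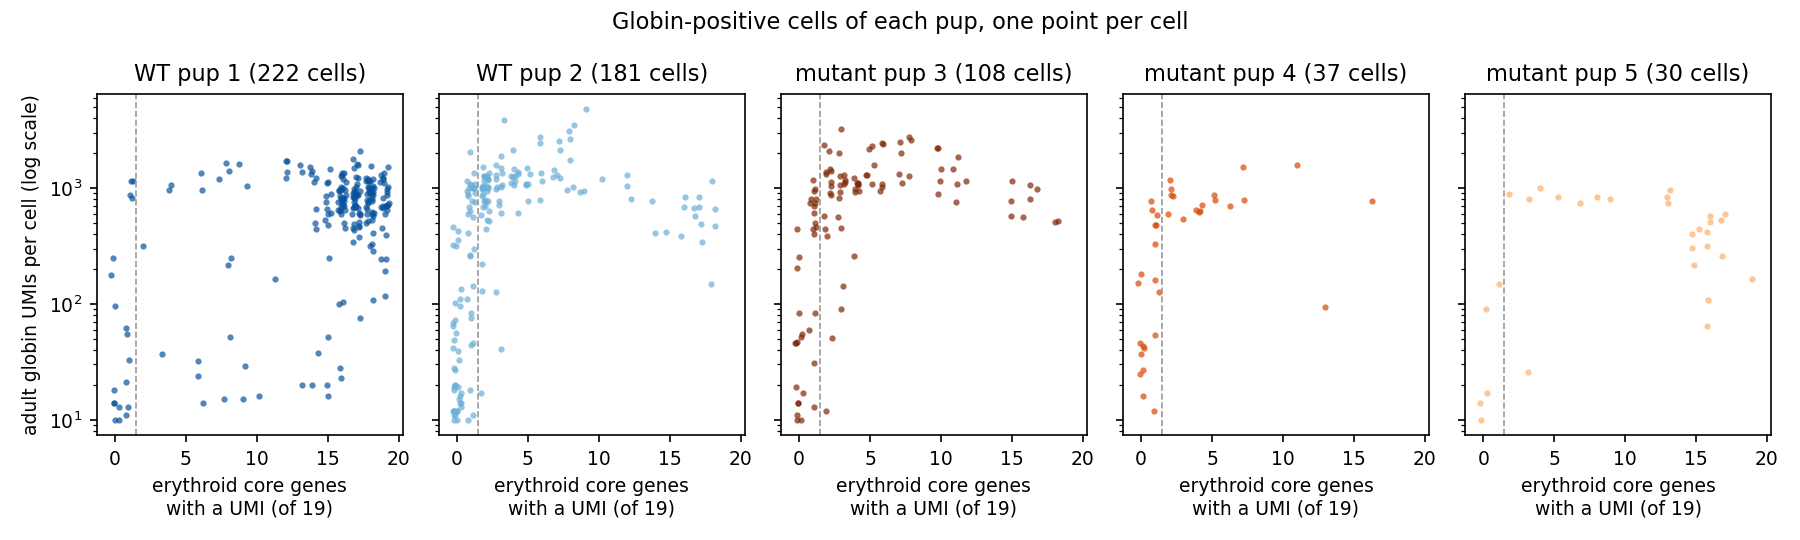
Adult globin UMIs per cell (vertical, log scale) against the number of the 19 core erythroid genes with a UMI in the cell (horizontal, points shifted slightly sideways), 1 point per member and 1 panel per pup; the dashed line separates cells with 0 or 1 core genes. Most cells of WT pup 1 sit at 15 or more core genes, while most cells of WT pup 2 and mutant pups 3 and 4 sit below 10.

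The members fell into groups with different erythroid genes, and the pups held them in different proportions. Cells with a UMI of at least 15 core genes made up 164 of 222 members (73.9%) in WT pup 1 and 14 of 30 (46.7%) in mutant pup 5. They made up 14 of 181 (7.73%) in WT pup 2, 9 of 108 (8.33%) in mutant pup 3 and 1 of 37 (2.7%) in mutant pup 4. WT pup 1 and mutant pup 5 were thus high and the other 3 pups low, so each genotype held high and low pups. Both pups with Xist were low, and the pups without it were high or low. Median depth of the members was 5837, 8435, 5938, 5640 and 4992 UMIs per cell in pups 1 to 5. The cause of this order was not tested.

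The 202 cells with at least 15 core genes differed from those with 4 to 9 in single genes that the core list does not contain. Mki67, a nuclear protein of dividing cells, was at 5574 CPM of the non-globin UMIs in them, against 228 CPM in the 96 cells with 4 to 9 core genes and 122 CPM in the 148 cells with 0 or 1. Car2, red cell carbonic anhydrase, was at 13356, 1872 and 22.5 CPM in the same order. Bpgm, which makes the glycolytic intermediate that tunes oxygen release from hemoglobin, ran the other way between the first 2 groups, with 104 CPM in the cells with at least 15 core genes and 1160 CPM in those with 4 to 9. Tent5c, a poly(A) polymerase expressed late in red cell maturation, was at 282 and 1637 CPM. Both groups held high globin, with medians of 720 and 1102 UMIs per cell. In the 40 cells with 10 to 14 core genes, Mki67 was at 1888 CPM, Car2 at 10463, Bpgm at 1409 and Tent5c at 2780.

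RNA of other cell types was also unequal between these groups. Col1a1, the main collagen gene of bone and fibroblasts, was at 10790 CPM in the cells with at least 15 core genes, 47808 CPM in those with 4 to 9 and 58721 CPM in those with 0 or 1. The endothelial adhesion gene Pecam1 was at 10.9, 590 and 618 CPM. The part of these transcripts in the differences between the groups was not tested.

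Within the cells with at least 15 core genes, the 4 pups with 9 or more such cells had similar ratios of erythroid genes. Per 100 Alas2 UMIs they held 474, 430, 376 and 395 Mki67 UMIs in WT pups 1 and 2 and mutant pups 3 and 5. For Bpgm the values were 8.01, 7.84, 14.5 and 10.9, and for Tent5c 23.6, 17.6, 30.6 and 20.3. In the cells with 4 to 9 core genes, Bpgm stood at 68.6 to 96.2 and Tent5c at 90.6 to 119 per 100 Alas2 UMIs across the 5 pups. These ranges did not overlap with those of the cells with at least 15 core genes, for either gene, in any pup for which the ratio was computed. Mutant pup 4 had a single cell in the higher class, so no ratio is given for it.

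Summed over all core-positive cells, the pups differed in the balance of erythroid genes. The sums covered 203 and 109 cells in WT pups 1 and 2 and 75, 18 and 25 cells in mutant pups 3, 4 and 5, with 1573, 961, 675, 98 and 139 Alas2 UMIs. Slc4a1 stood at 313, 61.0, 69.3, 63.3 and 235 UMIs per 100 Alas2 UMIs in pups 1 to 5. Rhag stood at 109, 13.8, 14.1, 14.3 and 69.1. For both membrane genes WT pup 1 and mutant pup 5 were above the other 3 pups, and the 2 genotypes overlapped.

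The same order was seen for 5 further genes, picked with their values in view, among them 2 regulators. Gata1 stood at 24.7, 2.39, 3.70, 2.04 and 14.4 UMIs per 100 Alas2 UMIs, from 388, 23, 25, 2 and 20 UMIs in pups 1 to 5. Klf1 stood at 17.7, 2.60, 1.04, 5.10 and 9.35, from 279, 25, 7, 5 and 13 UMIs. With so few UMIs in mutant pups 3 and 4, the order among the 3 lower pups cannot be read for these regulators. Tfrc, the transferrin receptor that imports iron, stood at 91.0, 20.3, 10.4, 10.2 and 83.5. Cpox, a later enzyme of heme synthesis, stood at 310, 37.7, 31.4, 27.6 and 234. Mki67 stood at 413, 66.7, 48.7, 58.2 and 195. For each of these 5 genes the lower of WT pup 1 and mutant pup 5 was above the highest of the other 3 pups.

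Some genes of the late maturation list had another order. Bpgm stood at 18.1, 59.8, 66.5, 91.8 and 37.4 UMIs per 100 Alas2 UMIs in pups 1 to 5, so WT pup 1 and mutant pup 5 were the lowest. Tent5c stood at 40.8, 90.8, 90.5, 111 and 70.5, again with WT pup 1 and mutant pup 5 lowest. Bnip3l, a receptor for the removal of mitochondria, stood at 51.7, 78.6, 84.0, 110 and 82.0, with mutant pup 5 inside the range of the others. Other genes of that list had the first order, such as Nxpe2 at 72.4, 11.8, 14.4, 19.4 and 61.2 and Hemgn at 154, 22.7, 13.6, 16.3 and 92.1, so the list did not move as 1 group. Fech, the enzyme that inserts iron into heme, varied less, at 122, 56.4, 66.4, 76.5 and 110. These genes were named after their values were seen, and the ratios carry no test. The plot of ratios to Alas2 shows 18 genes.

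**Figure D2:**
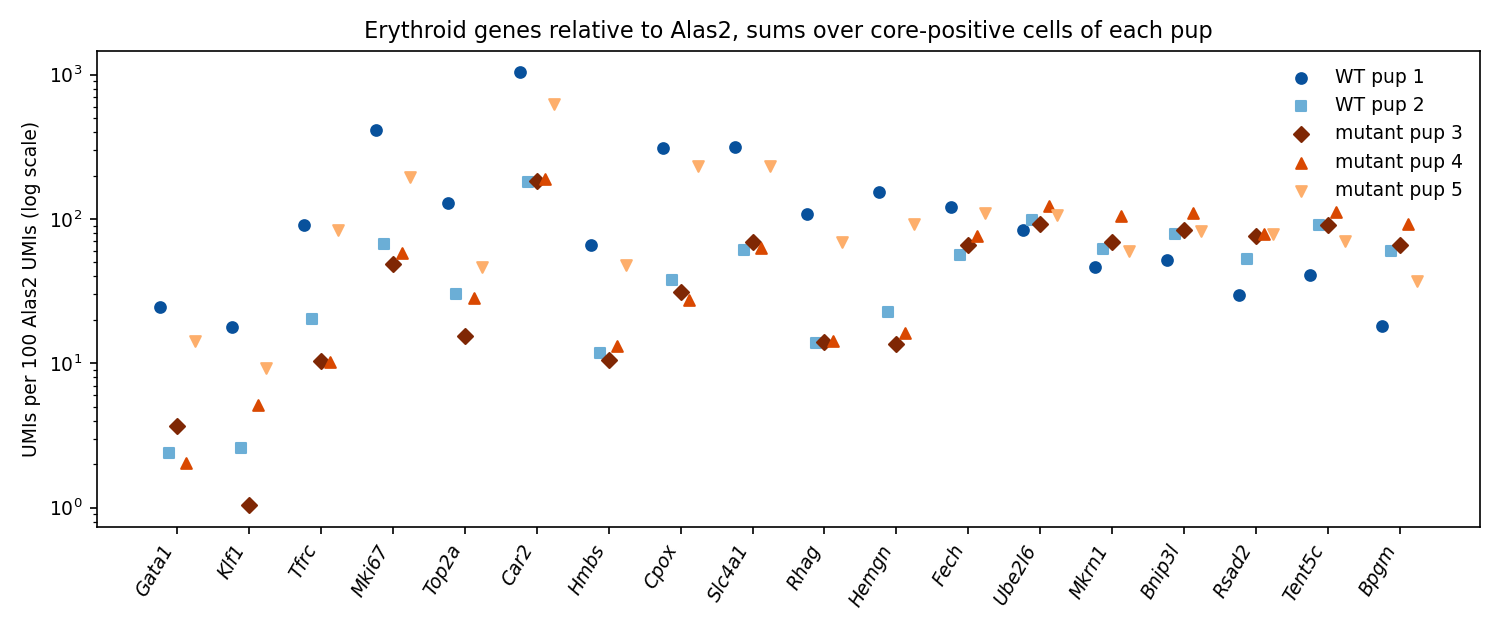
UMIs of 18 erythroid genes per 100 Alas2 UMIs (vertical, log scale), summed over the core-positive cells of each pup, with 1 point per pup. From Gata1 to Hemgn the points of WT pup 1 and mutant pup 5 lie above those of the other 3 pups, and for Bpgm and Tent5c they lie below.

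The share of a cell's UMIs taken by globin arranged the genes in a further way. Of the members, 103 held under 1% globin UMIs, 158 held 1 to 10%, 297 held 10 to 50% and 20 held at least 50%. The 20 cells came from WT pup 2 (4 cells), mutant pup 3 (14 cells) and mutant pup 4 (2 cells), with none in WT pup 1 or mutant pup 5. They held a median of 417 genes and 3384 UMIs, whereas the cells with 10 to 50% globin held 1801 genes and 5367 UMIs. All 20 were core-positive.

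Among their non-globin UMIs, genes that reticulocytes are known to keep were prominent. Tent5c reached 19646 CPM against 1205 CPM in the cells with 10 to 50% globin. Alas2 reached 17536 against 1850 CPM, Bnip3l 15145 against 1102 CPM, and Slc25a37, the mitochondrial iron importer mitoferrin, 13176 against 3397 CPM. Fech was at 9425 against 1610 CPM and Bpgm at 12097 against 705 CPM. Each of these 6 genes was higher in the cells with at least 50% globin than in the cells of any lower band. Within each of the 3 pups that had such cells, all 6 were also higher than in that pup's cells with 10 to 50% globin. The whole late maturation list took 13.9%, 15.0% and 13.5% of their non-globin UMIs in WT pup 2 and mutant pups 3 and 4, against 1.42%, 1.68% and 1.75%.

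For division and early genes the comparison depended on the pups pooled. Mki67 was at 328 CPM against 3865 CPM in the cells with 10 to 50% globin, but WT pup 1 supplied 136 of those 297 cells and none of the 20. Within WT pup 2 it was at 319 against 834 CPM, in mutant pup 3 at 388 against 882 CPM and in mutant pup 4 at 0 against 735 CPM, from only 2, 5 and 0 UMIs in the higher band. The whole cell cycle list took 0.687% against 0.559% of non-globin UMIs in WT pup 2, 0.674% against 0.530% in mutant pup 3 and 0.324% against 0.427% in mutant pup 4, so it was higher in the top band in 2 of 3 pups. Hemgn and Tfrc, with 0 to 3 UMIs per pup in the top band, give no order. Col1a1 was lower there in each of the 3 pups, at 6388 against 40284 CPM in WT pup 2, 6123 against 42173 CPM in mutant pup 3 and 6475 against 36358 CPM in mutant pup 4. The bands share cells with the globin rule, so these values describe the cells and were not tested.

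**Figure D3:**
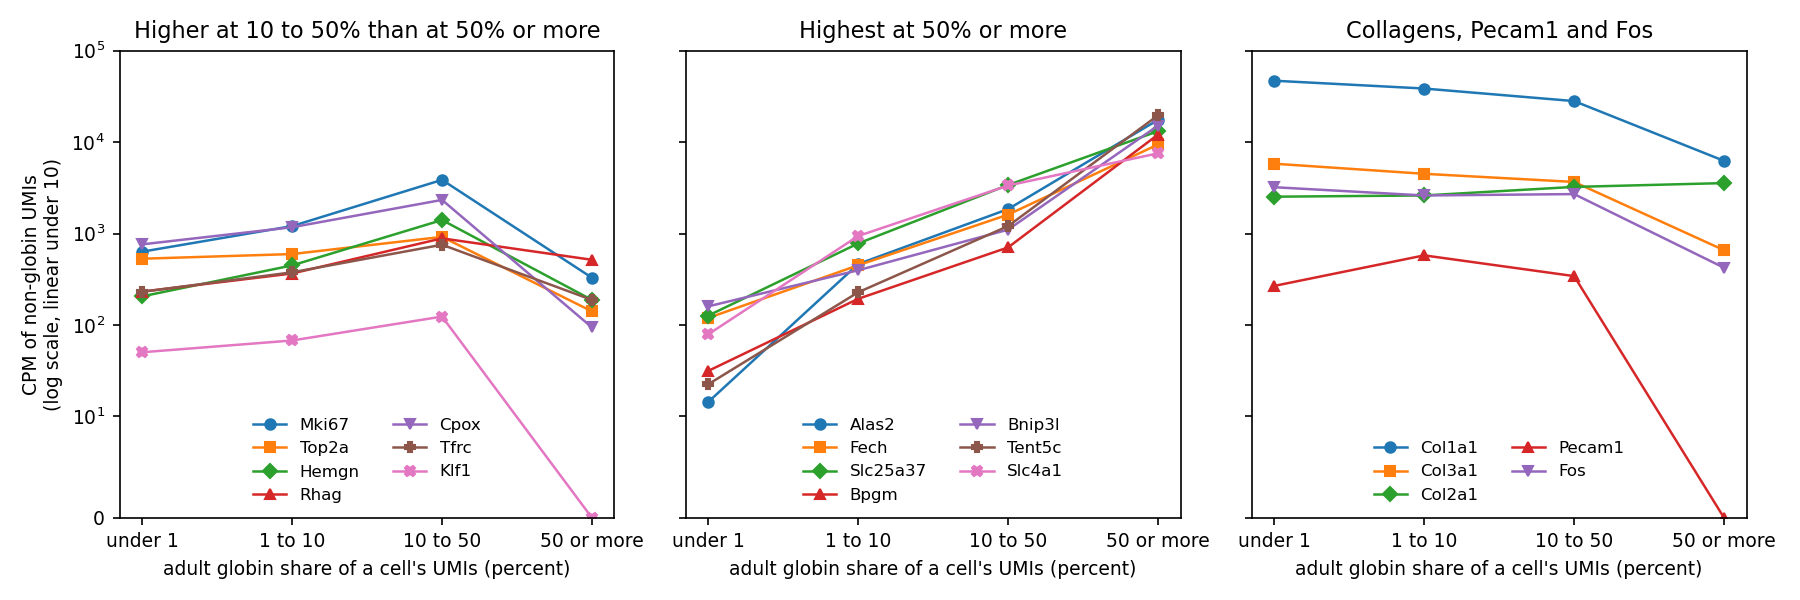
Level of 19 genes in CPM of the non-globin UMIs (vertical, log scale and linear under 10), summed over members in 4 bands of globin share (horizontal, percent of a cell's UMIs; 103, 158, 297 and 20 cells). Alas2, Bpgm and Tent5c climb to between 12097 and 19646 CPM, whereas the fall of Mki67 from 3865 to 328 CPM is over pooled pups, and WT pup 1 has cells in the first 3 bands and not in the highest.

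Hemoglobin joins alpha chains (Hba-a1, Hba-a2) and beta chains (Hbb-bs, Hbb-bt), and the deposited counts gave their proportions in the core-positive cells of each pup. Beta globins made up 36.2% and 34.7% of globin UMIs in WT pups 1 and 2 and 34.1%, 37.7% and 37.5% in mutant pups 3, 4 and 5. The genotypes overlapped, with 35.5 ± 1.12% in WT (SD, n = 2) and 36.4 ± 2.01% in mutant pups (SD, n = 3) and a 2-sided exact permutation p of 0.6. Hbb-bt made up 33.7 ± 3.69% of beta globin UMIs in WT and 37.7 ± 2.10% in mutant pups (exact permutation p = 0.3). Hba-a2 made up 40.3 ± 5.92% of alpha globin UMIs in WT and 43.4 ± 2.89% in mutant pups (exact permutation p = 0.5), with the reservation about these near-identical genes above. Adjusted over the 3 proportions by the Benjamini-Hochberg method, each exact permutation p was 0.6.

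Embryonic globins were nearly absent. Among 3165478 UMIs of the core-positive cells, Hba-x had 0 UMIs, Hbb-y 1 and Hbb-bh1 2, where a count of 0 allows up to 3. The minor globin gene Hbq1b had 234, 43, 28, 7 and 12 UMIs in pups 1 to 5. Of 2 progenitor genes, Kit, the stem cell factor receptor, was at 8.21 CPM in the core-positive cells against 3.41 CPM in other cells. Gata2, a factor of early progenitors, was at 5.37 against 6.26 CPM. The whole list of erythropoietin and progenitor receptors took 0.141% of non-globin UMIs in the core-positive cells and 0.0574% in other cells. It took 0.138% in the members with 0 or 1 core genes and 0.206% in the macrophages, so its level was not particular to the core-positive cells. Epor, the erythropoietin receptor, was at 183, 24.1, 33.8, 0 and 117 CPM in pups 1 to 5.

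Members were a larger share of the cells in both WT pups than in any mutant pup. Members were 222 of 15121 filtered cells in WT pup 1 (1.47%, 95% Wilson interval 1.29 to 1.67%) and 181 of 16561 in WT pup 2 (1.09%, 0.946 to 1.26%). They were 108 of 19133 in mutant pup 3 (0.564%, 0.468 to 0.681%), 37 of 17887 in mutant pup 4 (0.207%, 0.150 to 0.285%) and 30 of 13814 in mutant pup 5 (0.217%, 0.152 to 0.310%). The intervals cover counting error only. The mean was 1.28 ± 0.265% in WT (SD, n = 2) and 0.329 ± 0.204% in mutant pups (SD, n = 3), with a 2-sided exact permutation p of 0.1. With 2 pups against 3 there are 10 groupings and 0.1 is the smallest p the test can give, so the design cannot pass 0.05.

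Core-positive cells had the same order of genotypes. They were 1.34% and 0.658% of cells in WT pups 1 and 2 and 0.392%, 0.101% and 0.181% in mutant pups 3, 4 and 5. The means were 1.00 ± 0.484% (SD, n = 2) and 0.225 ± 0.150% (SD, n = 3), again with an exact permutation p of 0.1. Cells with at least 15 core genes did not keep that order, with 14 cells each in WT pup 2 and mutant pup 5. Those pups had 16561 and 13814 filtered cells. Globin in the other cells followed the genotype order of the members. Among cells that were not members, 17.5% and 30.2% held 1 to 9 globin UMIs in WT pups 1 and 2, against 10.1%, 3.87% and 6.33% in mutant pups 3, 4 and 5. The amount of marrow or blood taken with each growth plate and the genotype cannot be told apart in this design. Both pups with Xist were mutant, so the presence of Xist is also partly tied to the genotype.

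**Figure D4:**
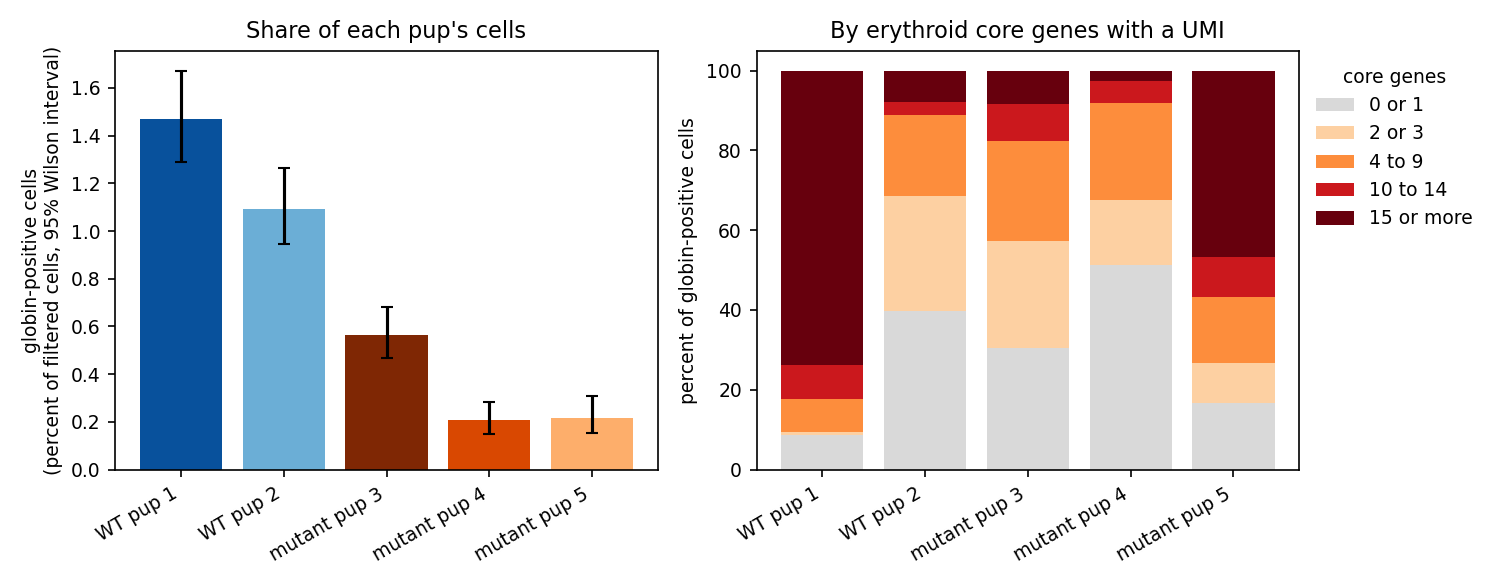
Left, members as a percent of each pup's filtered cells, with 95% Wilson intervals as bars of counting error; right, the members of each pup divided by the number of core erythroid genes with a UMI (percent of members). Both WT pups lie above the 3 mutant pups on the left, whereas on the right WT pup 1 and mutant pup 5 hold 73.9% and 46.7% of cells with 15 or more core genes.

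The 148 members with 0 or 1 core genes had low core genes by their definition, and 35.1% had an Alas2 UMI. Besides Alas2 (93.0-fold), most of their 20 leading genes against other cells were known from vessel lining. Among these were the endothelial genes Selp (43.7-fold), Cldn5 (40.7-fold), Cdh5 (38.0-fold), Fabp4 (37.3-fold) and Pecam1 (34.2-fold). Selp stood at 1223 CPM in WT pup 2 and at 0 to 92.1 CPM in the other 4 pups, so 1 pup carried it.

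Of the list of 15 endothelial markers, 26 of these 148 cells (17.6%) held a UMI of 3 or more, as did 40 of the 430 core-positive cells (9.30%) and 0.902% of other cells. The order of the first 2 shares was not the same in every pup, at 10.5% against 1.48% in WT pup 1, 18.1% against 19.3% in WT pup 2, 24.2% against 13.3% in mutant pup 3, 15.8% against 27.8% in mutant pup 4 and 0% against 4.0% in mutant pup 5. It turned in 3 of 5 pups, and WT pup 1 held 203 of the 430 core-positive cells. The turns rest on few cells, with 13 of 72 against 21 of 109 in WT pup 2. Mutant pup 4 had 3 of 19 against 5 of 18, and mutant pup 5 had 0 of 5 against 1 of 25. No order can be read within those pups. Summed over the list, endothelial markers took 0.0198%, 0.240%, 0.252%, 0.512% and 0.0372% of the non-globin UMIs of the core-positive cells in pups 1 to 5. WT pup 1 and mutant pup 5, whose members had the largest shares of cells with 15 or more core genes, were the 2 lowest. Markers of perichondrial, tendon and fibroblast cells took 2.72%, 7.09%, 7.06%, 4.84% and 7.95% in the same cells. Markers of megakaryocytes and platelets and of mast cells and basophils did not reach 3 markers in any member. At least 3 chondrocyte markers were held by 94.5% of members, 94.0% of core-positive cells and 98.9% of other cells. At least 3 perichondrial, tendon and fibroblast markers were held by 81.0%, 75.8% and 99.1%, in the same order. At least 3 macrophage markers were held by 5.19% of members and 1.91% of other cells, and by 0.985%, 12.8%, 6.67%, 0% and 0% of the core-positive cells in pups 1 to 5, so WT pup 2 was highest. At least 3 lymphoid markers were held by 1.38% of members and 0.206% of other cells, and at least 3 granulocyte markers by 0.692% and 0.570%. Their part in the differences between pups was not tested.

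A further 261 filtered cells held at least 10 globin UMIs but exceeded the Col2a1 limit, with 68, 95, 41, 26 and 31 cells in pups 1 to 5. They had a median of 10049 UMIs and 614 globin UMIs, and 60.5% had a UMI of at least 2 core genes. Chondrocyte markers took 14.6% of their non-globin UMIs, compared with 0.896% in the members. That list includes Col2a1, whose limit separated these cells from the members, so the rule set part of this contrast. Median Col2a1 was 770 UMIs per 10000 in these cells and 8.84 in the members. Another 30 cells with at least 10 globin UMIs failed the filters on genes or mitochondrial UMIs.

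The comparison of genotypes addressed whether the globin-positive cells differed in expression in pups whose chondrocytes carried the mutation. UMIs were summed per pup and tested with edgeR's quasi-likelihood test, with Benjamini-Hochberg adjustment at 0.05 over all genes tested. In the members, 0 of 8057 genes (0% called) passed, with 63 genes at an unadjusted p under 0.05, and DESeq2 called 1, Ibsp. In the core-positive cells, 0 of 6813 genes (0% called) passed, with 34 at an unadjusted p under 0.05, and DESeq2 called 0. In simulated data with a log2 change of 2, the test recovered 0 of 200 changed genes in the members. It recovered 3 of 200 in the core-positive cells, so the absence of called genes cannot exclude changes of that size. The numbers at an unadjusted p under 0.05 turned on 1 pup, and without WT pup 2 they were 1821 of 7746 in the members and 999 of 6381 in the core-positive cells, with 0 genes past the adjusted threshold. That fit has 1 WT pup, which is assumed to vary like the mutant pups, so these numbers rest on the spread of the mutant pups alone.

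None of the erythroid lists held a gene that passed. In the core-positive cells the 19 core genes had a median log2 fold change (mutant over WT) of -0.84, with 17 below 0, and the 35 cell cycle genes tested a median of -0.93, with 35 below 0, beside -0.08 over all genes tested. The 31 late maturation genes had a median of 0.17 and the 14 endothelial markers one of 0.83. The medians of the core and cell cycle lists turned on 1 pup. Without WT pup 1 they were 1.11 and 0.52, so their direction reversed. The median of the endothelial markers was -0.14 without WT pup 1 and 3.66 without WT pup 2.

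Single erythroid genes showed the same overlap between genotypes. Slc4a1 was at 3411 and 643 TMM-normalized CPM in WT pups 1 and 2 and at 1117, 744 and 2376 in mutant pups 3, 4 and 5. Its log2 fold change was -0.52 (SE 0.72), with an edgeR adjusted p of 1.00. Mki67 was at 4498 and 703 CPM in the WT pups and at 785, 684 and 1975 in the mutant pups, a log2 fold change of -1.18 (SE 0.75). Alas2 varied least of these, at 1089 and 1054 against 1611, 1176 and 1013 CPM, with a log2 fold change of 0.24 (SE 0.40). Trpv4 itself was at 15.4 to 17.3 CPM in the WT pups and 9.54 to 36.0 CPM in the mutant pups, with overlapping groups, and the counts do not show which allele a read came from.

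No core or cell cycle gene separated the genotypes. Over all genes tested in the core-positive cells, the normalized CPM of the 2 groups did not overlap for 10.3% of genes, and this held for 0 of 19 core genes, 0 of 35 cell cycle genes and 5 of 31 late maturation genes. In the members the figure was 10.9% over all genes, 0 of 19 core genes and 4 of 31 late maturation genes.

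In the core-positive cells the 5 genes of lowest p were Cytl1, a secreted cartilage protein, Xist, Retnlg, a granulocyte gene, Sema3d, a guidance cue, and ENSMUSG00000120302, all with an edgeR adjusted p of 1.00. Xist had 0 UMIs in both WT pups and in mutant pup 5, and 213 and 47 in mutant pups 3 and 4. The presence of Xist is thus partly tied to the genotype in each genotype comparison. Cytl1 was at 44.3 and 41.7 normalized CPM in the WT pups and at 234, 216 and 240 in the mutant pups, without overlap, a log2 fold change of 2.42 (SE 0.47). Its 251 UMIs lay in 31 of the 430 cells, with 12 and 7 cells in the WT pups and 8, 2 and 2 in the mutant pups. Mutant pups 4 and 5 had 18 and 33 UMIs, so the absence of overlap rests on few cells. The 71 UMIs of ENSMUSG00000120302 lay in 57 core-positive cells and in no other member. In the members the lowest p belonged to Ibsp, bone sialoprotein of osteoblasts, with 0 and 6 UMIs in the WT pups and 268, 229 and 326 in the mutant pups. Those UMIs lay in 11 of 578 cells, and 1 cell held all 229 of mutant pup 4 and 1 cell all 326 of mutant pup 5.

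A last comparison set the genotype effect in the core-positive cells against that in all other cells of the same pups, in an edgeR fit with the pup as a block. The difference passed for 8 of 18710 genes (0.0428% called), and none of the 8 was in the erythroid core list. The largest in size was Camp, an antimicrobial peptide gene of granulocytes (log2 difference 17.42, edgeR adjusted p = 8.99e-08), and 1 cell of mutant pup 3 held all 84 of its UMIs in the core-positive cells. Without the 3 core-positive cells that held a UMI of at least 3 granulocyte markers, 1 gene passed, Ibsp (log2 difference 5.29, edgeR adjusted p = 0.00606).

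**Figure D5:**
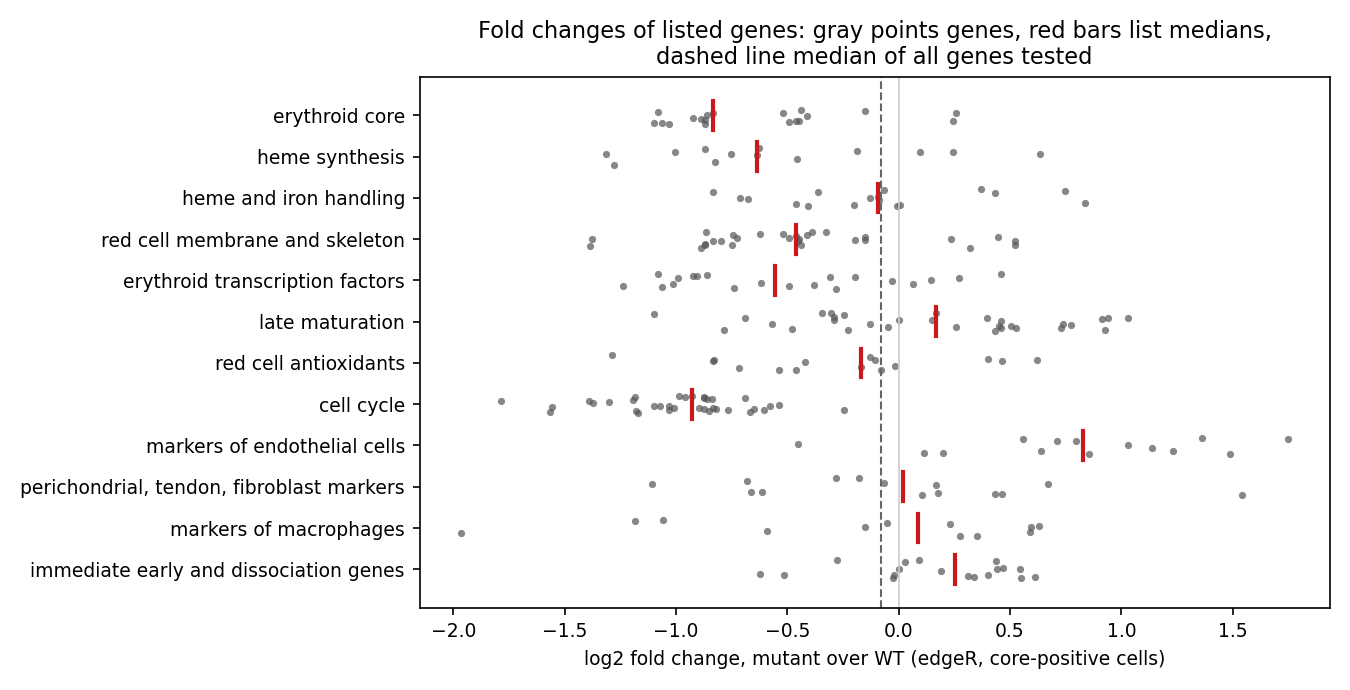
log2 fold change of each listed gene between mutant and WT pups in the core-positive cells (horizontal, edgeR), by gene list, with gray points for genes, red bars for list medians and a dashed line for the median of all genes tested (-0.08). The red bars of the core and cell cycle lists lie at -0.84 and -0.93 and that of the endothelial markers at 0.83, and no gene of any list passed the test.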

How the data were processed

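Single-cell libraries of 5 pups were made on the BD Rhapsody platform. Raw UMI counts, 1 matrix of genes by cells for each pup, were deposited without normalization, and the submitters' processing notes name build mm10. The aligner version was not given in the sources used here. Cells were filtered and selected as described, without a doublet caller. The members and gene lists were chosen with earlier results of these data known. Counts were summed per pup and tested with edgeR 4.0.16 (TMM, filterByExpr, robust quasi-likelihood fit, Benjamini-Hochberg at 0.05) in R 4.3.3, with DESeq2 1.42.0 as an alternative. Each pup is 1 animal and is the unit of replication. The edgeR p-values also draw on the spread of other genes, so for a gene whose UMIs lie mostly in 1 cell they do not measure the spread between animals. Shares were compared by exact permutation over pups (scipy 1.17.1). CPM are UMIs per 1000000 summed UMIs, with the adult globins taken out where non-globin is stated. Genes named were those of the rule, Alas2, the most abundant of each list, the 25 leading genes by ratio and the 5 of lowest p in each genotype test, and the other genes were picked with their values in view. The scripts were tested on simulated data with 200 changed genes. At a log2 change of 1 the genotype test recovered 0 of 200 in the members and 0 of 200 in the core-positive cells. At a log2 change of 2 it recovered 0 and 3, in the same order. At a log2 change of 3 it recovered 108 and 76, with 10 and 1 false calls. Some genes are not reported here.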

Additional observations from a re-analysis of the deposited data

Results flagged for a closer look

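For 8 genes the genotype effect in core-positive cells differed from that in all other cells by the edgeR interaction test. The log2 differences were 17.42 for Camp (edgeR adjusted p = 8.99e-08), 7.69 for Ngp (8.99e-08), 16.35 for Chil3 (0.000304), 16.61 for Prtn3 (0.000762), 5.27 for Ibsp (0.000944), 8.16 for Fcnb (0.0112), 4.14 for Stfa1 (0.0241) and 6.88 for Olfm4 (0.0434). Camp, Ngp, Prtn3 and Fcnb are in the granulocyte marker list. A single cell of mutant pup 3 held 84 of 84 UMIs of Camp, 86 of 89 of Ngp, 56 of 56 of Chil3, 13 of 13 of Prtn3 and 26 of 28 of Fcnb. For Stfa1 it held 89 of 132 and for Olfm4 43 of 44. Another cell of the same pup held 266 of 268 UMIs of Ibsp. Fitted values for genes with no UMI in most sums depend on the prior count and are no bound on a fold.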

How the results depend on the processing

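The lower share of members in mutant pups kept its sign under every alternative run, with differences of -1.14 to -0.763 percentage points when 1 pup was left out, and -1.12 to -0.434 for core-positive cells. Counts of called genes in the members were 1 with DESeq2, 10 without the filter on low counts, 3 without the pups with Xist and 0 to 1 with 1 pup left out (1 without WT pup 1). In the core-positive cells they were 8 without the filter, 1 without the pups with Xist and 0 to 5 with 1 pup left out (5 without WT pup 1). The fits without the pups with Xist leave mutant pup 5 alone, which is assumed to vary like the WT pups. Of that pup's UMIs in the members, a single cell held 28 of 32 for Angptl7, 21 of 21 for Dmp1 and 326 of 326 for Ibsp. Each fit without a WT pup assumes that the lone WT pup varies like the mutant pups. The 5 genes were H2-Aa, H2-Ab1, H2-Eb1, Il1b and Mpeg1, named after their values were seen, and their UMIs lay in few cells of WT pup 2, with 212 of 219 UMIs of H2-Aa in 5 cells and 230 of 236 of Il1b in 9, while WT pup 1 had 2 and 5. The interaction calls numbered 1 to 97 with 1 pup left out (97 without WT pup 2, 1 without mutant pup 3) and 1 without the cells with granulocyte markers, an alternative chosen after seeing the data. The difference in the beta share of globin reversed to -0.41 percentage points in members with at least 50% globin, and that in the Hba-a2 share reversed to -0.90 there. Only WT pup 2 (4 cells) and mutant pups 3 (14 cells) and 4 (2 cells) had such members, so the pups changed along with the cells. With 1 pup left out, the Hba-a2 difference ran from -1.11 (without WT pup 1) to 7.27. The cause was not tested. No paired analysis was possible because the labels number the pups 1 to 5 and no number is shared between genotypes.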
